A study of Mus musculus with 9 samples.

Results

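The enzymes and cofactors that write, copy and erase cytosine methylation, with the Polycomb methyltransferases Ezh1 and Ezh2 and the Polycomb-associated protein Asxl1, were followed in mouse hematopoietic stem and progenitor cells. The 10 genes were picked by symbol: Dnmt1, Dnmt3a, Dnmt3b, Uhrf1, Tet1, Tet2, Tet3, Ezh1, Ezh2 and Asxl1. Each symbol matched 1 of the 31053 feature rows of the single-cell count matrices. The choice was made by symbol, but earlier results of these data were known when it was made.

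The cells were Lin-, C-kit+, Sca1+ bone marrow cells (LSKs), a sorted population that holds the stem cells and the early multipotent progenitors. All mice were C57BL/6, and 3 libraries were made per group. Young mice were 10 to 12 weeks of age and aged mice were over 80 weeks, and both groups received only cyclodextrin, the carrier. The third group, named CASIN here and aged+CASIN in the plots, was of the same older age and received the Cdc42 inhibitor CASIN in cyclodextrin at 25 mg per kg, as 4 intraperitoneal injections given 24 h apart. Marrow was taken on day 5 in every group, and the sorted cells were frozen viably and thawed before 10x Genomics 3′ libraries were prepared. The labels place young 1, young 2, aged 1, CASIN 1 and CASIN 2 in sequencing batch 1, and young 3, aged 2, aged 3 and CASIN 3 in sequencing batch 2. The study states in general terms that its experiments had biological replicates and were repeated on other days, but the sources used here do not tie each library to a separate mouse, so p-values measure the spread between these libraries, which may be technical in part.

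Dnmt1 copies methylation onto the new DNA strand after replication, and Uhrf1 recruits it to hemimethylated sites. Dnmt3a and Dnmt3b set methylation at sites that lacked it, and the Tet dioxygenases oxidise the mark so that it can be lost. Ezh2 and its paralog Ezh1 are the alternative catalytic subunits of Polycomb repressive complex 2 (PRC2), which methylates lysine 27 of histone H3, while Asxl1 is a cofactor of the deubiquitinase that acts on the Polycomb mark of histone H2A. Mutations in DNMT3A, TET2 and ASXL1 are the most frequent ones in human clonal hematopoiesis, the age-related expansion of blood cell clones. The data here are RNA levels, and neither mutations nor DNA methylation were measured.

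In the mm10 build the genes lie on 8 chromosomes. Dnmt1 is at chr9:20907209-20959888 on the minus strand, Uhrf1 at chr17:56303321-56323486 on the plus strand, Ezh1 at chr11:101191115-101226463 on the minus strand and Ezh2 at chr6:47530139-47595341 on the minus strand. The files carried the same Ensembl gene identifiers as the annotation used here for all 10 genes. Annotated genes on the same strand lie inside Dnmt1 (Mir7081), Tet1 (Gm48353 and Gm26479) and Tet3 (Mir6374 and 5430434F05Rik), so counts of these 3 genes carry that uncertainty.

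Promoter sequence is shown for 3 genes whose levels moved with the cell cycle, Uhrf1 and Ezh2 upward and Ezh1 downward. Capitals mark E2F-type letters (TTTGGCGC, TTTGCCGC, TTTCGCGC or TTTCCCGC) and the CCAAT box, each searched on both strands, and neither motif overlaps the other. Sequences are from RefSeq on GRCm38.p6, 5′ to 3′ on the gene's strand. The Uhrf1 window is the 250 bases before its second annotated start and the Ezh1 window the 250 bases before its start. The Ezh2 stretch is 125 bases that run from 153 to 29 bases before the start used, with bases that are exonic in other transcripts left out. By the coordinates, the Uhrf1 and Ezh2 stretches lie inside the gene spans given above and not before them.
Uhrf1, chr17:56304063-56304312, plus strand: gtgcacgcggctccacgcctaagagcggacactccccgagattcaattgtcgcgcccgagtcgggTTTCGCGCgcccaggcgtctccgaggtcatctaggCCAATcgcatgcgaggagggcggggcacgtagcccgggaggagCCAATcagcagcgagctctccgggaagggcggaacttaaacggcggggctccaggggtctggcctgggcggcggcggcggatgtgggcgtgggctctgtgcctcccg
Ezh2, chr6:47595059-47595183, minus strand: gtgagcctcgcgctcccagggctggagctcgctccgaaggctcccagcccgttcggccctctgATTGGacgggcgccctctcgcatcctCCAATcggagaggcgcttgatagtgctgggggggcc
Ezh1, chr11:101226464-101226713, minus strand: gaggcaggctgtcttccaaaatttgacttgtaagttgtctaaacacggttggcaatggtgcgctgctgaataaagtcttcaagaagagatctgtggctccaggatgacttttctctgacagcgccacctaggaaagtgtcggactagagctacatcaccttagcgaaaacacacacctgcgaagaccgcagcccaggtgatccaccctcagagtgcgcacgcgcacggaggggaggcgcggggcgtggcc
An E2F-type match was found in 1 of the 2 Uhrf1 windows, 185 bases before the start, and in 1 of the 3 Dnmt1 windows, 219 bases before the start. The other 8 genes had none in their windows of 250 bases. Among all 32851 windows of that length, 1.86% held an E2F-type match and 33.8% held a CCAAT box. The Ezh2 window held 3 CCAAT boxes, the printed Uhrf1 window 2 and the Ezh1 window 0. These matches describe the letters and are not evidence of binding.

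After the filters of the study were applied, 15856 of 32387 barcodes were kept, 1112 to 2417 per library. The libraries held 19237354 to 42780953 unique molecular identifiers (UMIs). Before filtering, the median mitochondrial share of UMIs was 2.73% to 4.61% in the 5 libraries of batch 1 and 13.0% to 15.5% in the 4 libraries of batch 2, so batch 2 stood apart. Kit was at 112 to 225 CPM and Ly6a, which encodes Sca1, at 87.9 to 186 CPM. Of the sorted-out lineage genes, Cd8a and Cd5 stayed at or below 1.36 CPM, while Itgam, which encodes Cd11b, was higher at 3.59 to 10.8 CPM. Of the kept cells, 125 (0.788%) carried a barcode that also occurred in another library. Here CPM is the UMIs of a gene per 1000000 UMIs, summed over all cells of a class within a library. In such sums, fewer cells of a type and less RNA per cell cannot be told apart. Mature myeloid marker genes summed to 11.5 to 100 CPM in the young, 31.9 to 430 CPM in the aged and 7.86 to 63.2 CPM in the CASIN libraries, and their part in any result over all LSKs was not tested.

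Levels of Uhrf1, Dnmt1 and Ezh2 differed strongly with the cell cycle, while Tet1, Tet2, Tet3, Dnmt3a and Asxl1 differed more between sequencing batches, as given below. Cells were called cycling when their S or G2/M score was above 0 after thinning to 4000 UMIs, with Uhrf1 and the other listed genes left out of the scores. This gave 5985 cycling and 9539 non-cycling cells. Because the classes came from the same cells, the levels are described without a test. The share of all genes whose ranges lie apart between the classes was not tested either.

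Uhrf1 was at 2.36, 6.62 and 12.0 CPM (lowest, median and highest of 9 libraries) in non-cycling cells and at 54.4, 66.2 and 85.2 CPM in cycling cells. Every library was higher in cycling cells and the ranges did not overlap, with means of 6.74 ± 3.41 and 64.9 ± 9.73 CPM (SD, n = 9), a 9.62-fold ratio. Its partner Dnmt1 was at 33.9, 37.4 and 44.4 CPM in non-cycling cells. In cycling cells Dnmt1 was at 116, 128 and 148 CPM. The ranges were again apart, and the ratio of the means was 3.39-fold. Ezh2 ran from 20.1 through a median of 33.2 to 40.9 CPM in non-cycling cells, and from 109 through 122 to 147 CPM in cycling cells. This is a 3.86-fold ratio of the means, with 9 of 9 libraries higher in cycling cells.

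Ezh1, the PRC2 subunit associated with resting cells, ran the other way. Its level was 21.3, 26.4 and 38.8 CPM in non-cycling cells and 10.7, 15.2 and 21.9 CPM in cycling cells. All 9 libraries were lower in cycling cells (mean log2 difference -0.80 ± 0.52, SD, n = 9), although the ranges met, since the lowest non-cycling value lay below the highest cycling one.

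The remaining 6 genes differed far less between the classes. Dnmt3b was higher in cycling cells in 9 of 9 libraries, by 0.23 ± 0.17 on the log2 scale. Dnmt3a and Tet2 were lower in cycling cells in all 9 libraries, with mean log2 differences of -0.24 ± 0.13 and -0.28 ± 0.14. Tet1 was higher in cycling cells in 4, Tet3 in 3 and Asxl1 in 6 of 9 libraries, so these 3 showed no common direction. For Tet1 the direction split by sequencing batch, with log2 differences of -0.57 to -0.28 in the 5 libraries of batch 1 and 0.02 to 0.36 in the 4 of batch 2.

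**Figure D1:**
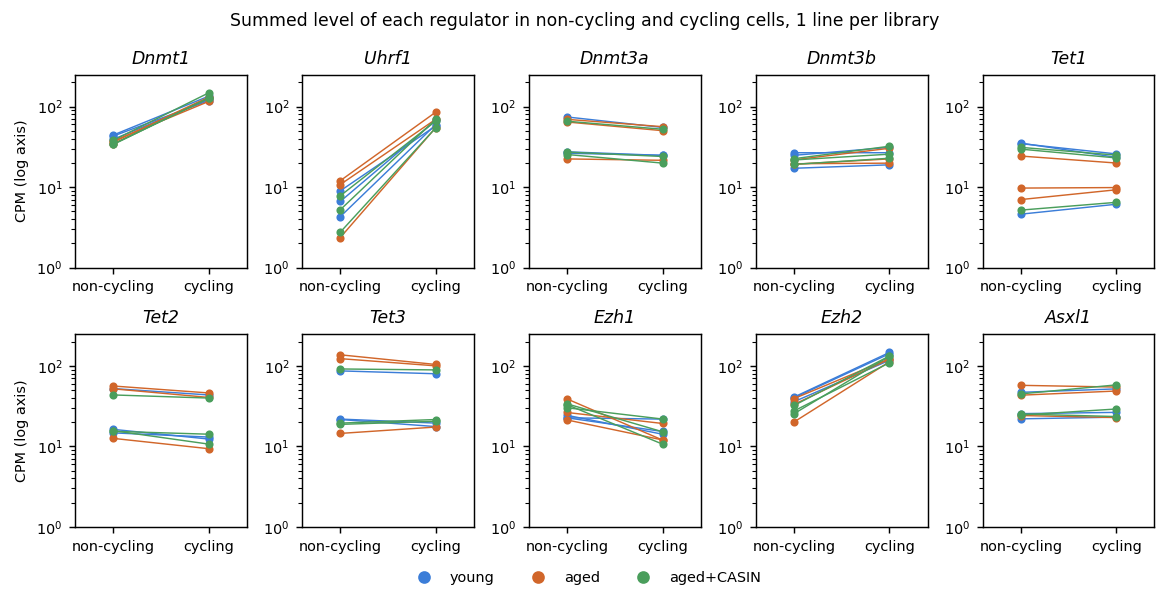
Level of each gene (CPM, log axis) in non-cycling and cycling cells, with 1 line per library coloured by group. Lines for Uhrf1, Dnmt1 and Ezh2 rise in all 9 libraries and lines for Ezh1 fall in all 9, while those of Tet2, Tet3, Dnmt3a, Tet1 and Asxl1 are nearly flat and split into 2 bands.

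Next, levels were compared across LSK subsets. Clustering without the 10 genes among the features gave 13 clusters, and 11 of them had at least 20 cells in 7 or more libraries and are described. Clusters were named from fixed markers where these led, and otherwise by their leading genes. The largest was HSC-1-like (4209 cells, 14.0% cycling), with Sult1a1, Nupr1 and Meg3 among its 10 leading genes. Markers of the study's HSC-2 cluster, such as Fos and Jun, scored second in it. At the alternative resolution of 0.8 an HSC-2-like cluster of 874 cells stood apart, so the name need not match the study's HSC-1. HSC-3-like cells (827 cells, 17.8% cycling) were led by Cd74 and other MHC class II genes, and LMPP-like cells (2551 cells, 41.4% cycling) by Wfdc17 and Dntt. CC-1-like cells (1060 cells, 99.8% cycling) were led by replication-dependent histone genes, and CC-2-like cells (262 cells, 99.6% cycling) by genes of mitosis such as Ube2c and Ccnb2. A cluster with Pclaf and Rrm2 on top (494 cells, 99.0% cycling) was not named, and Uhrf1 was among its 10 leading genes although it had no part in the clustering.

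Uhrf1 was highest in the Pclaf/Rrm2 cluster at 141 ± 14.0 CPM, followed by CC-1-like cells at 76.6 ± 7.83 CPM, and the gap was larger than its spread over 9 libraries. It was lowest in the Hist1h2bc/Hist1h1c cluster at 9.75 ± 2.64 CPM and in HSC-1-like cells at 9.89 ± 5.45 CPM, which did not differ beyond their spread. Dnmt1 was highest in CC-1-like cells at 190 ± 18.1 CPM and in the Pclaf/Rrm2 cluster at 171 ± 22.3 CPM. Its lowest levels were those of HSC-1-like cells and of HSC-3-like cells, at 41.1 ± 14.4 and 39.4 ± 11.2 CPM, again not apart. The CC-2-like cells of 7 libraries, although nearly all called cycling, stood well below the other cycling clusters for both genes, at 19.5 ± 4.32 CPM for Uhrf1 and 54.6 ± 7.69 CPM for Dnmt1.

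Ezh2 was at 193 ± 34.6 CPM in CC-1-like cells and 168 ± 21.5 CPM in the Pclaf/Rrm2 cluster, which were within their spread of each other, and CC-2-like cells came next at 105 ± 34.98 CPM. It fell to 32.0 ± 13.0 CPM in HSC-1-like cells, its lowest level. Ezh1 was at 32.2 ± 8.79 CPM in HSC-1-like cells, below only the 45.9 ± 15.9 CPM of a cluster led by Lars2 and Gm42418. The lowest Ezh1 level was 9.74 ± 1.88 CPM, in the Pclaf/Rrm2 cluster. All these subset means pool the 3 groups. In young libraries Ezh1 was nearly equal in HSC-1-like and LMPP-like cells, at 22.8 ± 1.01 and 22.2 ± 1.20 CPM. It was at 34.7 ± 9.17 and 16.9 ± 7.41 CPM in aged, and at 39.0 ± 3.43 and 20.2 ± 6.23 CPM in CASIN libraries. Of the 10 pairs of neighbouring subsets in each gene's order, 9 did not differ beyond their spread for Ezh1, 8 each for Ezh2 and Dnmt1, and 6 for Uhrf1. The order is therefore clear between its ends and not between most neighbours.

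**Figure D2:**
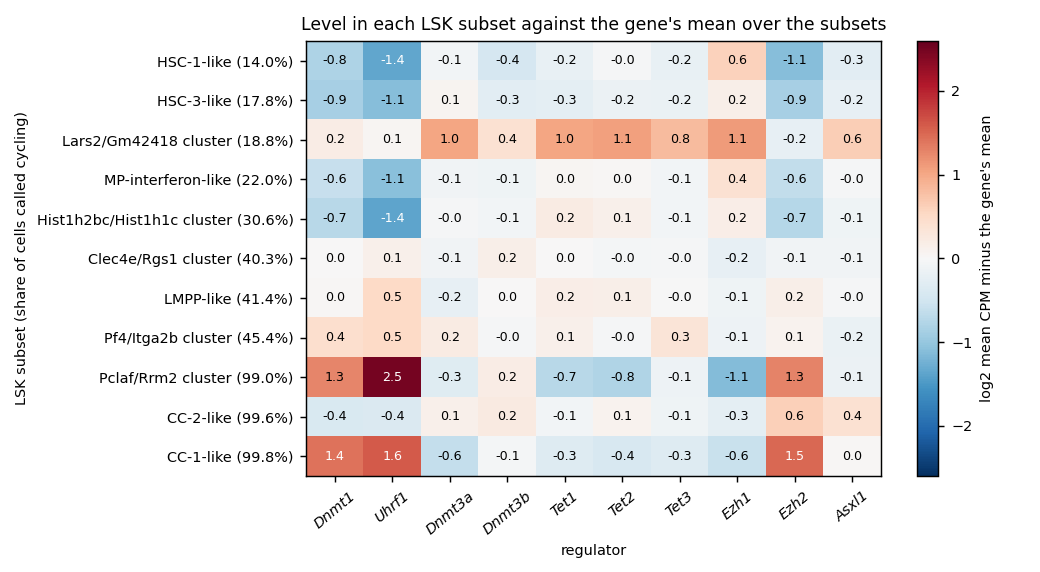
Mean level of each gene in each LSK subset, as log2 CPM minus the gene's mean over the 11 subsets, with subsets ordered by their share of cycling cells. CC-1-like cells and the Pclaf/Rrm2 cluster, both nearly all cycling, carry the highest values of Uhrf1, Dnmt1 and Ezh2 and the lowest of Ezh1.

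The Lars2/Gm42418 cluster (479 cells) had the highest mean level of Dnmt3a, Dnmt3b, Tet1, Tet2, Tet3, Ezh1 and Asxl1. Dnmt3a stood at 91.6 ± 40.6 CPM there against 51.8 ± 32.4 CPM in the next subset, a gap beyond the spread of the paired difference and in the same direction in 9 of 9 libraries. For Dnmt3b, Tet1 and Asxl1 all 10 neighbouring pairs were within their spread, as were 8 of 10 for Tet2 and 9 of 10 for Tet3. The cells of this cluster held a median of 0.57 times the UMIs of their own library's median cell. Its best-scoring type was MPP1, a multipotent progenitor cluster of the study, with 8 of 8 fixed markers raised. None of these markers were among its 10 leading genes, so it stayed unnamed. The part of the low depth in these levels was not tested.

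Across the 11 subsets, which share libraries and cells of unequal depth, mean log2 CPM of Dnmt1 and Uhrf1 correlated at r = 0.96, Uhrf1 and Ezh2 at 0.92 and Dnmt1 and Ezh2 at 0.90. Ezh1 correlated negatively with Ezh2 (r = -0.79) and Uhrf1 (r = -0.75). Among 5521 genes with a mean of at least 20 CPM, the pattern most like that of Uhrf1 was shown by Hells, a chromatin remodeler needed for DNA methylation (r = 0.987), then G3bp1 and Mcm3, a subunit of the replicative helicase. For Ezh2 these genes were Lrrc59, Sae1 and Usp1, for Dnmt1 Topbp1, Ptges3 and Hnrnpd, and for Ezh1 Tgoln1, Ube2h and Akap8l. Dnmt3a was most like Dennd1b, Zmym4 and Ube3a, Dnmt3b most like Cdk6, Slco3a1 and Trim35, and Asxl1 most like Coro1c, Cnot1 and Hnrnph1. The Tet genes each had other neighbours: Cabin1, Nckap1l and Il17ra for Tet1, Csnk1a1, Picalm and Bptf for Tet2, and Tpp2, Eif4g2 and Fubp1 for Tet3.

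Cycling and non-cycling cells were also compared within the 5 subsets that held enough of both. Among HSC-1-like cells, Uhrf1 was at 3.74 CPM in non-cycling and 34.0 CPM in cycling cells (means of 9 libraries, higher in 9 of 9). Ezh2 went from 23.8 to 60.7 CPM and Dnmt1 from 30.7 to 75.8 CPM, also in 9 of 9. Ezh1 was lower in cycling cells in 8 of 9 libraries, 24.5 against 33.6 CPM. Uhrf1, Dnmt1 and Ezh2 were higher in cycling cells in 9 of 9 libraries in LMPP-like cells and in the Clec4e/Rgs1 and Pf4/Itga2b clusters as well. Ezh1 was lower in 9 of 9 libraries in LMPP-like cells, but higher in 2 of 9 in the Clec4e/Rgs1 and 3 of 9 in the Pf4/Itga2b cluster. The Hist1h2bc/Hist1h1c cluster, compared in 3 libraries, was less uniform. Its Dnmt1 and Ezh2 were each higher in cycling cells in 2 of 3 libraries. The Dnmt1 means were 42.8 CPM in non-cycling and 40.7 CPM in cycling cells (mean log2 difference -0.25 ± 0.89). Non-cycling cells alone, with the groups pooled, still differed between subsets. Ezh1 was at 33.6 ± 8.89 CPM in HSC-1-like and 23.2 ± 4.69 CPM in LMPP-like cells, and Ezh2 at 23.8 ± 6.91 and 42.4 ± 5.52 CPM. In the young libraries alone, non-cycling HSC-1-like cells held Ezh1 at 24.7 ± 4.31 CPM.

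For 5 of the 10 genes the libraries were divided by sequencing batch, which must be known before the groups are compared. Tet3 was at 15.6 to 20.5 CPM in the 5 libraries of batch 1 and 83.3 to 123 CPM in the 4 of batch 2, a 5.36-fold ratio of the means. The log2 difference between the batches, which is not the log of that ratio, was 2.30, and only 1.73% of all genes reached this size. Tet2 was at 11.4 to 14.9 CPM in batch 1 and 42.3 to 52.2 CPM in batch 2, 3.53-fold apart. Its log2 difference was 1.69, a size reached by 5.46% of all genes. Dnmt3a was at 22.2 to 25.8 and 56.9 to 64.4 CPM (2.53-fold, log2 difference 1.24, 13.3% of genes). Asxl1 was at 22.6 to 26.7 and 46.4 to 56.2 CPM (2.03-fold, log2 difference 0.93, 24.3% of genes). Tet1 ran opposite, at 22.9 to 28.4 CPM in batch 1 and 5.36 to 9.74 CPM in batch 2, 3.72-fold lower. Its log2 difference was -1.82, a size reached by 4.09% of genes. These ranges did not overlap, as was the case for 59.1% of the 13642 genes tested. Dnmt1, Uhrf1, Dnmt3b, Ezh1 and Ezh2 overlapped between the batches. Batch 2 holds 1 young, 2 aged and 1 CASIN library, so batch was a term in the fits unless stated otherwise. Within-batch differences are given beside the main results. In batch 2, CASIN over young is 1 library against 1. Aged over young rests on 1 aged library in batch 1 and on 1 young library in batch 2.

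**Figure D3:**
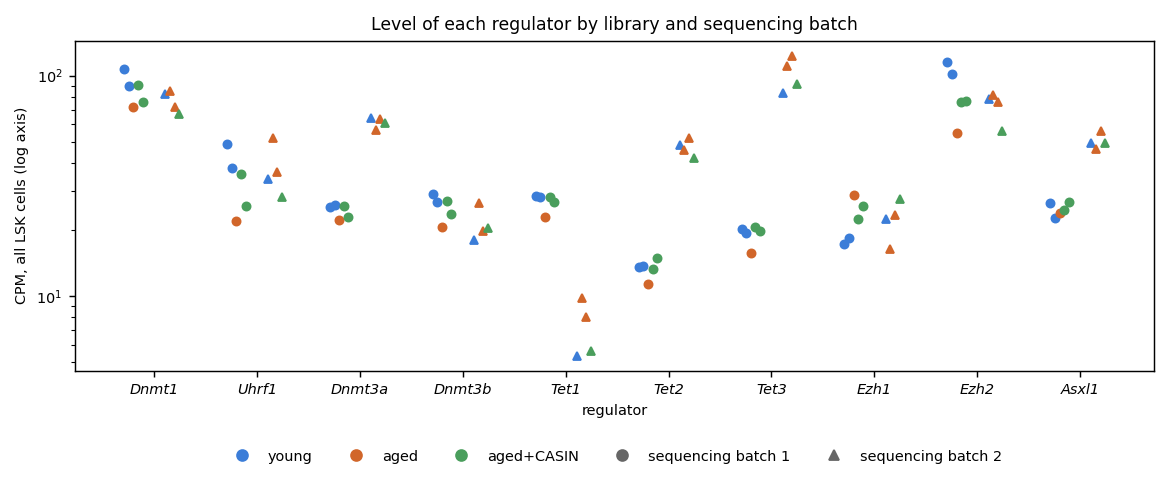
Level of each gene over all LSKs (CPM, log axis) in each library, with circles for sequencing batch 1, triangles for batch 2 and colour for the group. Tet3, Tet2, Dnmt3a and Asxl1 lie higher in the 4 libraries of batch 2 and Tet1 lies lower, whatever the group.

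Whether age or CASIN changed these genes was first asked over all LSKs, with edgeR on UMIs summed per library. None of the 10 genes passed an adjusted p of 0.05 (Benjamini-Hochberg over all genes tested) between aged and young mice, where 4.1% of 13642 genes did. The count was also 0 between CASIN and aged mice (0% of genes, 439 genes at an unadjusted p below 0.05) and between CASIN and young mice (4.27% of genes). At an unadjusted p below 0.05 edgeR gave 0, 0 and 1 of the 10 genes, beside 3006, 439 and 3273 of all 13642 genes. DESeq2 called 0 in each comparison. The aged libraries serve in 2 of these comparisons, as do the young and the CASIN libraries, so the comparisons are not independent.

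Ezh2 had the lowest p. It was at 115, 102 and 78.2 CPM in libraries young 1 to 3, at 54.6, 81.4 and 75.8 CPM in aged 1 to 3, and at 76.1, 77.0 and 55.9 CPM in CASIN 1 to 3. All CASIN libraries lay below all young ones, with a log2 difference of -0.51 (SE 0.19, adjusted p = 0.138) and -0.50 and -0.48 within the batches. Dnmt1 was at 107, 89.8 and 82.3 CPM in the young, 71.8, 85.3 and 72.0 CPM in the aged and 90.5, 75.7 and 66.6 CPM in the CASIN libraries. Its groups overlapped (CASIN over young -0.28, SE 0.13, adjusted p = 0.21, -0.25 and -0.31 within the batches). Dnmt3a, the gene most often mutated in clonal hematopoiesis, differed by -0.13 (SE 0.09) between aged and young and by -0.09 (SE 0.08) between CASIN and young libraries. Tet2 differed by -0.05 (SE 0.12) in both of these comparisons, and Asxl1 by 0.03 (SE 0.11) and 0.03 (SE 0.10). Within batch 1 and batch 2, aged over young was -0.20 and -0.10 for Dnmt3a, -0.26 and 0.02 for Tet2 and -0.04 and 0.05 for Asxl1. CASIN over young was -0.07 in both batches for Dnmt3a, 0.05 and -0.19 for Tet2 and 0.07 and -0.00 for Asxl1.

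The difference between aged and young also depended on the batch for some members, by edgeR's interaction of group and batch over all LSKs. It was called for 2 of 10 genes (3.09% of all genes), Ezh2 and Tet3, and in non-cycling cells for 1 of 10 (2.31% of genes), Tet3. For CASIN over aged 0 of 10 genes were called over all LSKs (0% of genes) and 0 in non-cycling cells (0.0469%). At an unadjusted p below 0.05 edgeR gave 6 members in each, beside 1817 of 13642 and 1262 of 12788 genes. Aged over young had 6 members below it in each class as well, beside 2657 and 2223 genes. For CASIN over young 0 of 10 were called, against 0.066% and 0.0469% of genes. There 0 members had an unadjusted p below 0.05 with edgeR, beside 1128 and 1111 genes. DESeq2 was not run on these interactions.

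The share of cycling cells was lower on average in both older groups than in the young. It was 58.9%, 48.8% and 39.8% in young, 27.9%, 41.6% and 33.3% in aged and 36.5%, 33.3% and 23.6% in CASIN libraries. CASIN lay 18.02 percentage points below young, with 18.9 and 16.2 points within the batches, and the 2-sided exact permutation p was 0.1, the smallest that 3 against 3 libraries allow. Aged lay 14.9 points below young (exact permutation p = 0.2), with 26.0 points in batch 1 and 2.33 in batch 2. The difference of CASIN from aged was -3.12 points (exact permutation p = 0.7), with 7.02 points in batch 1 and -13.9 in batch 2. The part of this share in the differences over all LSKs was not tested, but the classes can be read separately.

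Among non-cycling cells, 0 of 10 genes were called in each comparison (6.54% of genes for aged over young, 0% for CASIN over aged, 7.79% for CASIN over young). At an unadjusted p below 0.05 edgeR gave 1, 0 and 3 of the 10 genes, beside 3077, 364 and 3332 of all 12788 genes. DESeq2 called 0. Ezh1 came nearest. It was at 24.3, 22.6 and 22.6 CPM in the young, 38.8, 21.3 and 26.4 CPM in the aged and 32.9, 33.8 and 30.2 CPM in the CASIN libraries. All CASIN libraries were above all young ones (log2 difference 0.49, SE 0.15, adjusted p = 0.0717, 0.51 and 0.41 within the batches), while the aged libraries reached both lower and higher than the young. Among cycling cells none of the 10 genes was called either (0.851%, 0% and 0.532% of genes), and DESeq2 called 0. With edgeR 0 of 10 had an unadjusted p below 0.05, beside 1815, 809 and 1163 of all 12224 genes. Ezh2 of cycling cells was at 135 ± 15.7 CPM in the young, 119 ± 5.56 CPM in the aged and 125 ± 13.2 CPM in the CASIN libraries, and the groups overlapped. The difference of group differences between cycling and non-cycling cells was not called for any of the 10 genes (0 of 13115 genes in all 3 comparisons). The lowest unadjusted p in CASIN against young was that of Dnmt1, 0.0128 (adjusted p = 0.308).

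HSC-1-like cells, the largest cluster and one that carried stem cell markers, were then compared alone. Between aged and young libraries 1 of 10 genes was called (8.23% of 11770 genes), between CASIN and young 4 (14% of genes) and between CASIN and aged 0 (0% of genes, 397 genes at an unadjusted p below 0.05 with edgeR, 1 of them among the 10, and 0 of 10 with DESeq2). Ezh1 rose in both older groups, and Dnmt1, Ezh2 and Uhrf1 fell in CASIN over young.

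Ezh1 was at 23.0, 23.7 and 21.7 CPM in libraries young 1 to 3, at 45.1, 27.7 and 31.4 CPM in aged 1 to 3 and at 39.0, 42.5 and 35.6 CPM in CASIN 1 to 3. Every aged and every CASIN library lay above every young one. The share of all genes that separate the groups in this way was not tested, here or in the other group comparisons. Such separation is therefore given as a description of the libraries only. The log2 difference was 0.79 (SE 0.15, adjusted p = 0.00679) for aged over young and 0.85 (SE 0.14, adjusted p = 0.00191) for CASIN over young. Within batch 1 and batch 2 these were 0.95 and 0.45 for aged and 0.80 and 0.72 for CASIN. Between CASIN and aged it was 0.07 (SE 0.13), with overlapping libraries. Aged 1 was the highest library, and without it the difference of aged over young was 0.52 (adjusted p = 0.149). With a mitochondrial limit of 5% the differences were 0.86 (adjusted p = 0.0554) and 0.75 (adjusted p = 0.0564), so both missed the threshold at about the same size.

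Dnmt1 was at 74.9, 48.8 and 44.8 CPM in the young, 36.3, 34.6 and 31.1 CPM in the aged and 38.2, 35 and 25.8 CPM in the CASIN libraries, and every library of the older groups lay below every young one. The difference was called for CASIN over young (-0.72, SE 0.15, adjusted p = 0.00712, -0.76 and -0.80 within the batches). For aged over young it was -0.54 (SE 0.16) and missed the threshold (adjusted p = 0.0547), which it passed without young 2 (adjusted p = 0.0321). With cells thinned to 4000 UMIs the difference of CASIN over young was -0.47 (adjusted p = 0.12).

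Ezh2 was at 59.2, 43.6 and 35.2 CPM in the young, 19.0, 27.9 and 35.1 CPM in the aged and 21.9, 26.5 and 19.7 CPM in the CASIN libraries. CASIN lay below young in each library (-0.98, SE 0.22, adjusted p = 0.0103, -1.09 and -0.83 within the batches). Without young 1 the adjusted p was 0.0769, and without CASIN 3 it was 0.0682. Aged 3 lay next to young 3, and aged over young was -1.43 in batch 1 and -0.16 in batch 2 (-0.73 in all, SE 0.24, adjusted p = 0.0818). That difference was called without young 3 (adjusted p = 0.0176) or aged 3 (adjusted p = 0.0316). The opposite signs of Ezh1 and Ezh2 were present in CASIN over young in both batches, with 1 library against 1 in batch 2.

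Uhrf1 showed the largest difference and the largest error of the 10 genes. It was at 21.5, 13.0 and 9.95 CPM in the young, 4.34, 11.9 and 10.4 CPM in the aged and 8.48, 5.38 and 4.00 CPM in the CASIN libraries. CASIN over young was -1.34 (SE 0.39, adjusted p = 0.0376, -1.32 in each batch), and all CASIN libraries lay below all young ones. The call was lost without young 1 (adjusted p = 0.239), young 2 (0.0678), CASIN 2 (0.115) or CASIN 3 (0.175), and in 12 of 21 alternatives in all. Dnmt3b came to -0.51 (SE 0.17, adjusted p = 0.0671) in that comparison. Without young 3 it was called for CASIN over young (adjusted p = 0.00991) and for aged over young (adjusted p = 0.0318).

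The other members, Dnmt3a, the 3 Tet genes and Asxl1, had absolute log2 differences of at most 0.26 between either older group and young. The batches ran in opposite directions for some of them. Aged over young was -0.38 in batch 1 and 1.35 in batch 2 for Tet1, and -0.49 and 0.66 for Tet3. Tet3 had the lowest p between CASIN and aged libraries (-0.49, SE 0.19, unadjusted p = 0.0273 and far from the threshold after adjustment), at 0.01 in batch 1 and -0.67 in batch 2. Summed lymphocyte markers of HSC-1-like cells were at 33.8 to 99.5 CPM in the young, 32.7 to 35.3 CPM in the aged and 12.1 to 50.7 CPM in the CASIN libraries, and their part in the differences was not tested.

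**Figure D4:**
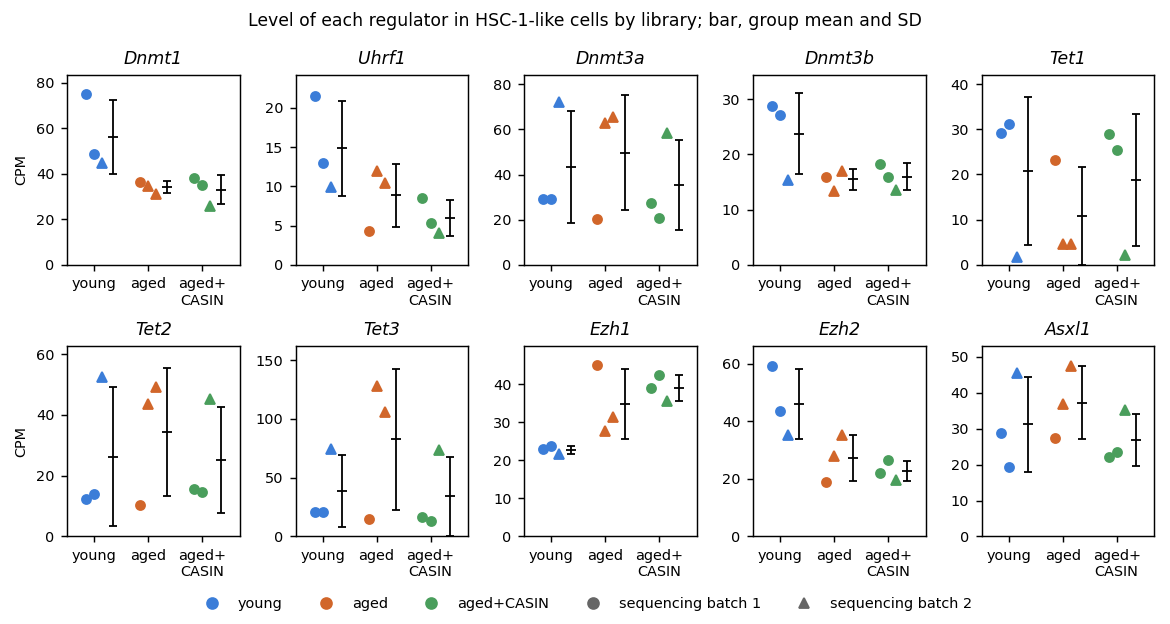
Level of each gene in HSC-1-like cells (CPM) by library, with circles for sequencing batch 1, triangles for batch 2 and a bar for the group mean and SD (n = 3). For Ezh1 the young libraries, at 21.7 to 23.7 CPM, lie below all others, and for Dnmt1 they lie above all others at 44.8 to 74.9 CPM.

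Cycling cells were also unequally spread among the HSC-1-like cells. Their share was 38.5%, 24.0% and 15.5% in young, 10.96%, 11.7% and 10.8% in aged and 14.8%, 9.11% and 5.37% in CASIN libraries. Young lay above both older groups in every library (exact permutation p = 0.1 for each, the smallest possible). Summed S phase genes of the score ran along, at 1008 to 1793 CPM in the young, 777 to 821 CPM in the aged and 605 to 851 CPM in the CASIN libraries. Summed G2/M genes were at 1994 to 2356 CPM in young and 1377 to 2035 CPM in aged libraries, which overlapped. In CASIN libraries they were at 1269 to 1530 CPM, below all young ones. The part of the cycling share in the differences of Dnmt1, Ezh2 and Uhrf1 was not tested over all HSC-1-like cells.

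The comparison was repeated on non-cycling HSC-1-like cells alone, an alternative added after the data were seen. Ezh1 remained called in both comparisons: 28.9, 25.1 and 20.3 CPM in the young, 46.8, 29.2 and 32.0 CPM in the aged and 40.7, 44.1 and 35.9 CPM in the CASIN libraries. The log2 differences were 0.75 (SE 0.15, adjusted p = 0.00708) for aged and 0.77 (SE 0.14, adjusted p = 0.00287) for CASIN over young, against 7.01% and 9.75% of genes called. They were thus nearly as large without the cycling cells. Dnmt1 was no longer called for CASIN over young (-0.21, adjusted p = 0.425), at 43.2, 29.7 and 32.7 CPM in young and 32.8, 29.2 and 25.7 CPM in CASIN libraries. Ezh2 was not called either (-0.53, adjusted p = 0.201), nor Uhrf1 (-0.56, adjusted p = 0.474). Dnmt3a, not called, was at -0.32 (SE 0.13, adjusted p = 0.171) for aged over young, with -0.52 and -0.33 within the batches. For CASIN over young it was at -0.30 (SE 0.13, adjusted p = 0.176), with -0.32 and -0.42. Tet3 was at 0.31 for aged over young, with -0.49 and 0.69 within the batches. The count in CASIN over young went from 4 genes to 1. These sums hold fewer UMIs, with only 6 to 25 of Uhrf1 per library, and the part of this in the lost calls was not tested.

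**Figure D5:**
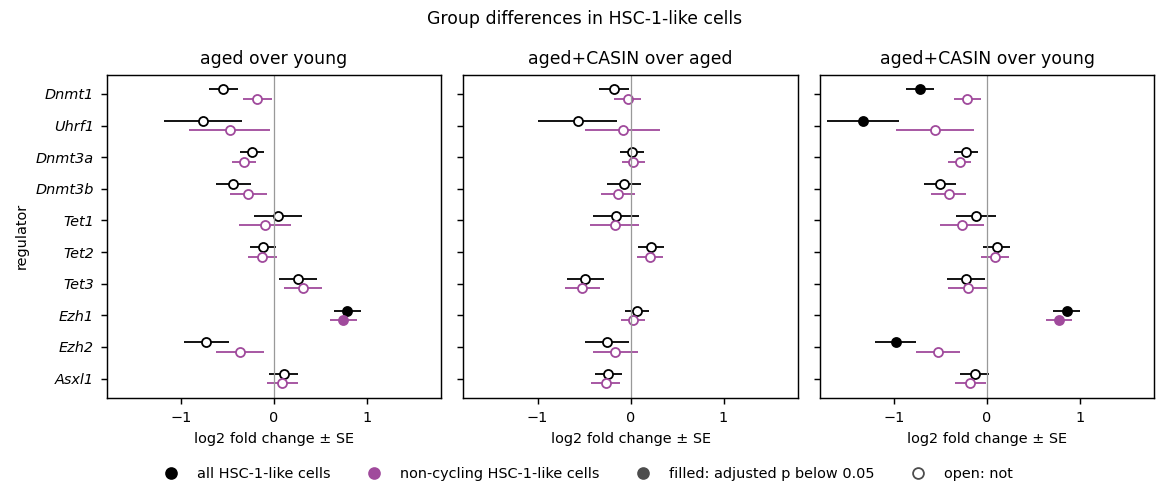
Log2 fold change with its standard error for each gene in all HSC-1-like cells (black) and in non-cycling ones (purple), in the 3 comparisons, with filled points for an adjusted p below 0.05 in edgeR. In aged over young and in CASIN over young, Ezh1 keeps its place near 0.8 in both sets of cells. Dnmt1, Ezh2 and Uhrf1 move toward 0 in CASIN over young when cycling cells are left out.

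In the other 9 clusters with at least 20 cells in every library, 1 call was made. Ezh2 in HSC-3-like cells was at 65.7, 46.6 and 60.0 CPM in the young, 18.9, 43.2 and 36 CPM in the aged and 30.1, 16.3 and 24.5 CPM in the CASIN libraries. CASIN over young was -1.26 (SE 0.26, adjusted p = 0.00908, 2.16% of 8205 genes called, -1.27 and -1.29 within the batches), and all CASIN libraries lay below all young ones. The cycling share of these cells was 22.4% to 42.7% in young and 9.33% to 24.6% in CASIN libraries. In the non-cycling cells alone the difference was -0.75 (adjusted p = 0.388), and these sums held only 6 to 31 UMIs of Ezh2 per library. In HSC-3-like cells 0 of 10 genes were called for aged over young (1.5% of genes) or for CASIN over aged (0.0122% of genes). At an unadjusted p below 0.05 edgeR gave 1 member in each, beside 944 and 340 of all 8205 genes. The Ezh2 call was lost without young 1 (adjusted p = 0.1), CASIN 2 (0.0633) or CASIN 3 (0.134). In the remaining 8 clusters edgeR called no member, and 0 to 2 of the 10 genes had an unadjusted p below 0.05 in each comparison. Of all genes, 242 to 1478 did so there. Few genes of any kind were called there. For aged over young this was 0.343% of genes in CC-1-like cells, 0.48% in the Clec4e/Rgs1, 0.172% in the Hist1h2bc/Hist1h1c, 1.5% in the Lars2/Gm42418, 0.279% in the Pclaf/Rrm2 and 1.68% in the Pf4/Itga2b cluster, 0.225% in LMPP-like cells and 1.69% in MP-interferon-like cells. For CASIN over young it was 0.252%, 0.122%, 0.0938%, 1.86%, 0.0606%, 1.43%, 0.0749% and 3.08% in the same order, and 0% for CASIN over aged in each of the 8. The filter on low counts left out 1 member in the Hist1h2bc/Hist1h1c cluster and 2 in MP-interferon-like cells.

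The other genes of these pathways were counted in lists by role. Of 21 further methylation genes, which bind, remove or target the mark, 20 were tested over all LSKs and none was called for aged over young, while 2 rose and 0 fell for CASIN over young. Of all 13642 genes tested, 4.1% were called for aged over young, and 3.8% rose and 0.462% fell for CASIN over young. Zfp57, which guards imprinted methylation, rose by 1.09 (SE 0.22, adjusted p = 0.0272, 0.95 and 1.39 within the batches) and Zbtb4, a reader of methylated DNA, by 0.64 (SE 0.13, adjusted p = 0.0279, 0.66 and 0.65). In non-cycling cells Zfp57 rose in aged (1.00, adjusted p = 0.0393) and CASIN libraries (1.18, adjusted p = 0.0167) alike against young, where 5.25% and 6.09% of all genes rose.

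Of 11 PRC2 partners and H3K27 demethylases, 1 rose for aged over young: Kdm6b, a demethylase that opposes PRC2 (0.77, SE 0.17, adjusted p = 0.0386, 0.33 in batch 1 and 1.04 in batch 2), beside 3.59% of all genes. For CASIN over young 1 fell, the core subunit Suz12 (-0.34, SE 0.08, adjusted p = 0.0498, -0.29 and -0.40 within the batches), beside 0.462% of all genes. In non-cycling cells Eed, the third core subunit, fell for CASIN over young (-0.38, SE 0.10, adjusted p = 0.048, -0.35 and -0.46 within the batches), where 1.7% of all genes fell. Of 23 genes of Polycomb complex 1 and the H2A deubiquitinase, 0 were called over all LSKs in these comparisons, against 4.1% and 4.27% of all genes. Cbx7 rose in non-cycling cells for CASIN over young (0.68, SE 0.16, adjusted p = 0.0356, 0.63 and 0.73 within the batches), as did 6.09% of all genes. Over all LSKs, the median log2 difference of these 3 lists ran from -0.07 to 0.04 for aged over young and from -0.08 to 0.01 for CASIN over young, beside medians of 0.01 and -0.00 for all genes.

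Of 26 other genes mutated in clonal hematopoiesis, 1 rose and 1 fell in each comparison with young, beside 4.1% of all genes called for aged and 4.27% for CASIN over young. Setbp1 rose by 2.25 (SE 0.42, adjusted p = 0.0248) in aged and 2.28 (SE 0.42, adjusted p = 0.0215) in CASIN libraries, from 0.776 CPM in young, a level of few UMIs. Within batch 1 and batch 2 this was 3.18 and 1.19 for aged and 2.41 and 2.02 for CASIN. Cux1 fell by 0.48 (SE 0.08, adjusted p = 0.0196) in aged and 0.36 (SE 0.08, adjusted p = 0.0409) in CASIN libraries. Within the batches this was -0.50 in both for aged and -0.32 and -0.39 for CASIN. With the batches pooled the Cux1 groups overlapped, at 214 ± 107 CPM in aged, 169 ± 110 CPM in CASIN and 217 ± 148 CPM in young. Jak2, a cytokine receptor kinase, rose in non-cycling cells of aged (0.54, SE 0.09, adjusted p = 0.00974) and CASIN mice (0.36, SE 0.09, adjusted p = 0.0346). The batches gave 0.53 and 0.50 for aged and 0.36 and 0.34 for CASIN. Libraries of the groups compared also overlapped for Jak2, Zbtb4, Kdm6b, Suz12 and Eed, but not for Zfp57, Cbx7 and Setbp1. For CASIN over aged, edgeR called none of the genes in the 4 lists and 0% of all genes. At an unadjusted p below 0.05 it gave 4 list genes over all LSKs (439 of all 13642 genes) and 2 in non-cycling cells (364 of 12788).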

How the data were processed

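The deposited matrices hold raw UMI counts per gene and barcode, which the authors made with Cell Ranger 3.1.0 on mm10, as the submitters' processing notes and the study's methods give it (Ensembl annotation). The 9 libraries were grouped by their GEO titles. No further normalization by the authors is in these counts.

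The study's filters were applied to each barcode: mitochondrial share at most 10%, at most 6000 genes, 1000 to 40000 UMIs and a residual of at most 0.4 from the line of log genes on log UMIs. Cycle scores (40 S and 54 G2/M genes) were computed on cells thinned to 4000 UMIs, which left out 332 shallower cells. Clusters came from Seurat 5.3.0 (SCTransform per library, CCA integration of 2975 features, 35 components, resolution 0.4), with the listed genes removed from the features. Scrublet called 0.423% of the kept cells as doublets, too few for it to have worked, so no doublets were removed, and leaving out the highest scores is an alternative. UMIs were summed per library and class and tested with edgeR 4.0.16 (TMM, filterByExpr, quasi-likelihood test, terms for group and sequencing batch, all 9 libraries). The SE of a log2 difference is its size over the square root of F. P-values were adjusted by Benjamini-Hochberg over all genes tested, with a threshold of 0.05, in R 4.3.3. The steps were tested on simulated counts with known changes of aged over young. At a log2 change of 0.5, 6 of 49 genes were recovered over all LSKs and 8 of 50 in HSC-1-like cells. At a log2 change of 1 it was 34 of 50 and 28 of 50. Genes not called may therefore have changed by such amounts. Alternatives were DESeq2 1.42.0, other size factors, no filter, no batch term, a replicate block, 2 groups only, a 5% mitochondrial limit, thinned cells, resolution 0.8 and each library left out.

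All 10 genes are named. Of the other pathway genes, those with an adjusted p below 0.05 over all LSKs or non-cycling cells and the same direction in both batches are named, at most 5 per list and comparison. The members and lists were chosen with earlier results of these data known. No pairing by replicate number is stated. Residuals of same-numbered libraries correlated between -0.61 and 0.89, with the sign following the sequencing batch. Within a batch, same-numbered libraries of different groups correlated at 0.73 to 0.89 and differently numbered ones at 0.64 to 0.75. Whether the numbers pair the libraries was not tested. The counts give no depth per molecule beyond the UMIs, and protein-tag libraries were not analysed here.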

Additional observations from a re-analysis of the deposited data

Results flagged for a closer look

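For 3 results the difference between aged and young libraries was not the same in the 2 sequencing batches, by edgeR's test of the interaction between group and batch. Over all LSKs, Ezh2 differed by -0.99 in batch 1 and 0.01 in batch 2, and the log2 difference between the batches was 1.01 (SE 0.17, adjusted p = 0.0262). Tet3 over all LSKs differed by -0.34 in batch 1 and 0.49 in batch 2, 0.83 apart (SE 0.18, adjusted p = 0.0445), and in non-cycling cells by -0.58 and 0.59, 1.17 apart (SE 0.19, adjusted p = 0.0157). The same test called 3.09% of 13642 genes over all LSKs and 2.31% of 12788 genes in non-cycling cells. Batch 1 holds 1 aged library and batch 2 holds 1 young library, so each value rests on a single library on one side, and the library and the batch cannot be told apart.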

How the results depend on the processing

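No result changed sign where it was called. The number of the 10 genes called in HSC-1-like cells for aged over young (1) became 3 with no filter on low counts, 2 with the replicate block, and 0 with no batch term and with the 5% mitochondrial limit. For CASIN over young (4) it became 0 with no batch term, 2 with thinned cells and 1 in the non-cycling cells of the cluster. Over all LSKs, CASIN over young (0) gave 2 with only the 2 groups compared. In non-cycling cells, aged over young (0) gave 1 with no filter, and CASIN over young (0) gave 2 with no filter, 2 with only the 2 groups and 1 with thinned cells. In HSC-3-like cells, CASIN over young (1) gave 0 with no batch term and in non-cycling cells, alternatives added after the data were seen. The replicate numbers are shared names without a stated pairing, and with the block Dnmt1 was called for aged over young (-0.69, adjusted p = 0.0381) while Uhrf1 was not for CASIN over young (-1.31, adjusted p = 0.0523). The block moved no other count by over 1.5 times. The causes were not tested.

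With each library left out in turn, the count ranged from 0 to 3 (aged over young), 0 to 0 (CASIN over aged) and 2 to 5 (CASIN over young) in HSC-1-like cells, and from 0 to 1 in HSC-3-like cells for CASIN over young. It ranged from 0 to 1 over all LSKs and 0 to 2 in non-cycling cells for CASIN over young, and stayed at 0 in the other comparisons of these classes and in cycling cells. In HSC-1-like cells the extremes came from leaving out aged 1 (0 genes for aged over young), young 1 or CASIN 3 (2 genes for CASIN over young) and young 3 (3 and 5 genes). The difference in the cycling share ranged from -19.6 to -10.01 points for aged over young, -6.31 to 0.653 for CASIN over aged and -22.7 to -13.1 for CASIN over young. Of the 6 calls reported, Ezh1 lost aged over young in 3 of 21 and CASIN over young in 2 of 21 alternatives. In CASIN over young Dnmt1 was lost in 3 of 21, Ezh2 in 4 of 21, Uhrf1 in 12 of 21, and Ezh2 of HSC-3-like cells in 5 of 13. Uhrf1 in non-cycling stem cells and Setbp1 rest on few UMIs, and the part of depth in the results was not tested.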
